A study of Mus musculus with 4 samples.

Results

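The gene set described here holds 34 genes that are recurrently mutated in human myeloid leukaemia or that encode splicing factors, out of 21883 protein-coding genes of the mouse gene table. The members were taken from lists of named genes and not by a rule on measured values, but with earlier results of these data known. They comprise 4 receptors of growth signals, 12 transcription factors and their partners, 4 enzymes of DNA methylation and isocitrate metabolism, 6 genes of the cell cycle and of protein or p53 turnover, and 8 splicing factors. A variant was counted in a member when it lay inside the gene body and passed in both variant callers, SpeedSeq and VarScan2, at the same position and alleles. Passing required a depth of at least 10 reads, of which at least 3 and at least 10% carried the variant, with a SpeedSeq quality score of at least 20. Such calls are named confident below, and the allele fraction is the percent of reads at a site that carry the variant.

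The study sequenced the exomes of c-Kit+ leukaemia cells sorted from mouse bone marrow. All 4 samples belong to 1 group, labelled E2-KO: C57BL/6 mice carrying Nras-G12D, an activated RAS allele, together with knockout of Ezh2, taken when moribund. The labels give no promoter or Cre line for these alleles, no ages and no animal numbers, and the names replicate 1 to 4 follow the listed order. Control mice and matched normal tissue were not analysed here, so no call is named somatic, and every statement compares libraries, not conditions. DNA carries no expression marker, so the labelled cell type could not be checked.

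The targeted genes were checked first. A single confident change in Nras, G103058956A, was read in 47.8%, 45.4%, 31.1% and 42.7% of reads in replicates 1 to 4. Each such token gives the base of the mm10 reference, the position counted from the start of the chromosome, and the variant base on the forward strand. The codon itself was not read here. Ezh2 held no confident variant in any sample, and lists of small variants do not show a deletion of exons. The exomes held 24411 to 37838 confident calls per sample, with the fewest in replicate 4. Replicate 3 stood apart in its fractions. Among SNVs (single-nucleotide variants) at a depth of at least 30, the median of those under 65% was 37.7% there and 44.7% to 45.7% in the other 3 samples. The median of those at 65% or more was 80.0% in replicate 3 and 100% in the other 3.

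Leukaemia of the myeloid lineage arises when progenitors keep dividing and fail to mature. Its recurrent mutations fall into classes: signalling genes that drive growth, transcription factors that direct maturation, and enzymes that set or remove DNA methylation. Tumour suppressors and splicing factors are further classes. In the signalling and splicing classes the known mutations often cluster at a few codons, whereas tumour suppressors and Cebpa are commonly truncated by small indels. The gene table used here marks the extent of each gene without its exons, so whether a call falls in an exon, an intron or an untranslated stretch is not given below.

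The only member variant seen in a single sample, with no entry from either caller at that position elsewhere, was a deletion of 1 base in Cebpa, in replicate 2. Its sequence is printed first, beside the indels of Idh1, Idh2, Sf3b1 and Kit and a call just under the depth limit in Trp53, because these short sequences show what kind of stretch each indel sits in. Reference and variant sequences are from the deposited variant files, on the forward strand of mm10. Capitals mark the single-base run or the deleted bases.
Cebpa reference, chr7:35121102-35121120: tCCCCCCCCCCCCactcag
Cebpa variant: tCCCCCCCCCCCactcag
Idh1 reference, chr1:65159391-65159416: tAAAAAAAAAAAAAAAAtacgtaaac
Idh1 longer variant: tAAAAAAAAAAAAAAAAAtacgtaaac
Idh1 shorter variant: tAAAAAAAAAAAAAAAtacgtaaac
Idh2 reference, chr7:80095549-80095565: tGGGGGGGGGGGGttcc
Idh2 variant: tGGGGGGGGGGGttcc
Idh2 reference at the repeat, chr7:80098332-80098351: cCCAGGGccagggccagggc
Idh2 variant at the repeat: cccagggccagggc
Sf3b1 reference, chr1:54997297-54997303: cTTTcca
Sf3b1 variant: cTTTTcca
Trp53 reference: cGGGGGGGGGGGGGGactgc
Trp53 variant: cGGGGGGGGGGGGGactgc
Kit reference, 8 bases deleted, chr5:75648349-75648358: tGTTTTTTGt
The Cebpa deletion shortens a run of 12 C to 11, and the Idh1 changes lengthen a run of 16 A to 17 or shorten it to 15. The first Idh2 deletion shortens a run of 12 G to 11, and the second removes 1 copy of a 6-base repeat. The Sf3b1 insertion is the one of these single-base changes that lies in a short run, 3 T becoming 4.

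Across the 4 samples, 98 confident sites lay in 9 of the 34 members, and 25 members held none. The share of members with a site, 26.5%, stood beside 24.0% of all protein-coding genes, so the share of the set was near the background. The sites were 78 SNVs and 20 indels, with each changed base of a multi-base substitution counted as an SNV. Kit held 39, Sf3a1 24, Chek2 20 and Fbxw7 6, which together make 89 of the 98. Idh1 held 3, Idh2 and U2af1 2 each, and Cebpa and Sf3b1 1 each. By class, the sites fell in 1 of 4 signalling genes, 1 of 12 transcription factors, 2 of 4 genes of methylation and metabolism, 2 of 6 genes of cell cycle and turnover, and 3 of 8 splicing factors. Of the 78 SNVs, 61 (78.2%) were transitions.

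Each sample carried calls in 6 to 8 members. Replicate 1 had them in 6 members (17.6%, beside 14.8% of all genes), replicate 2 in 8 (23.5%, beside 14.7%), replicate 3 in 6 (17.6%, beside 14.6%) and replicate 4 in 6 (17.6%, beside 10.8%). The number of calls was 64, 73, 75 and 43 in replicates 1 to 4, or 63.8 ± 14.6 (SD, n = 4). Replicate 4 had the fewest, and also the lowest median depth at its member calls, 24 reads beside 43, 33 and 35.

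Most member sites were confident in more than 1 sample. The same counts over all sites of the exome are not given here, so this sharing is not read as particular to the members. Of the 98 sites, 26 were confident in all 4 samples, 17 of them in Kit and 9 in Sf3a1. Another 30 were confident in 3 samples, 19 in 2 and 23 in 1. Of those 23, 22 were listed at the same position in another sample by at least 1 caller. The listing was the same allele, not passing in both callers, or another allele. The Cebpa deletion was the 1 site not listed elsewhere. Some of these listings were well read in SpeedSeq. An example, named after its values were seen, is C75641491T in Kit, confident in replicate 3 alone. SpeedSeq read it in 42 of 42, 51 of 51 and 54 of 54 reads in replicates 1, 2 and 4. VarScan2 did not list that allele there.

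The zygosity of a call was described by its allele fraction and by its genotype. Calls in which 65% or more of the reads carried the variant are named upper-range, the range of a homozygous site in an undiluted sample, and the rest lower-range. The genotype is the one SpeedSeq gives. Upper-range calls made up 38 of 64 in replicate 1 (59.4%, 95% exact Clopper-Pearson interval 46.4% to 71.5%), 28 of 73 in replicate 2 (38.4%, 27.2% to 50.5%), 23 of 75 in replicate 3 (30.7%, 20.5% to 42.4%) and 40 of 43 in replicate 4 (93.0%, 80.9% to 98.5%). These intervals cover counting error only, and neighbouring calls share reads. Over the whole exome the shares were 24.6%, 24.0%, 27.1% and 51.6%, so replicate 4 was the highest in both. SpeedSeq gave a homozygous genotype to 101 of the 129 upper-range member calls and to 0 of the 126 lower-range calls. The plot of allele fractions by gene shows that this mixture comes from a few genes, in each of which most calls of a sample lie near 1 level.

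**Figure D1:**
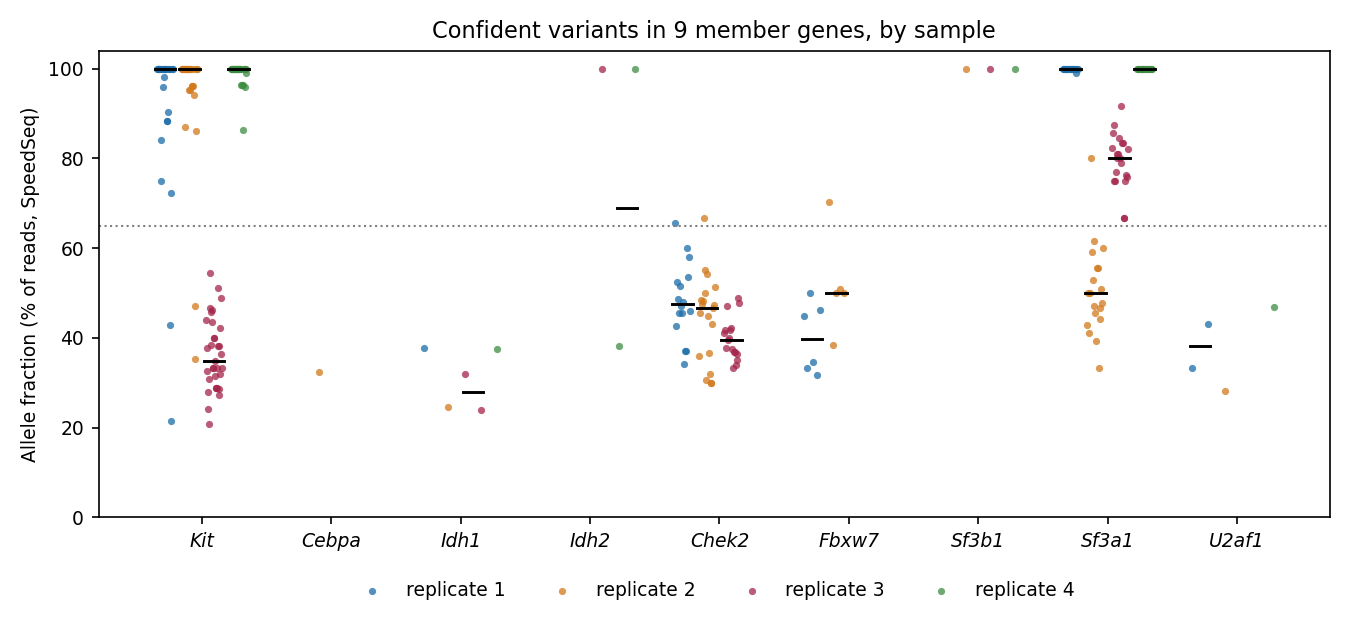
Allele fraction of each confident call (vertical axis, percent of reads in SpeedSeq) in the 9 member genes with a call (horizontal axis), 1 colour per sample; black bars are medians over the calls of a sample, drawn where a sample has 2 or more, and the dotted line is the 65% bound. In Kit, replicates 1, 2 and 4 have medians of 100% and replicate 3 of 34.8%, and in Sf3a1 replicate 2 has a median of 50% and replicate 3 of 80.0%.

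Whether a call differed between 2 samples was tested per site with a two-sided Fisher's exact test on reference and variant reads, with Benjamini-Hochberg adjustment over all 118457 site and sample pairs of the exome. Of 265 member pairs, 115 differed at an adjusted p under 0.05 (43.4%, beside 31.0% of all pairs). Pairs that included replicate 3 differed in 89 of 143 cases, and the others in 26 of 122. The exome-wide shares with and without replicate 3 are not given here. That library also stood apart in its exome-wide fractions, so this split is not read as particular to the members. Sites on the same DNA fragment are not independent, and the test compares reads of 2 libraries. The SNVs split from a multi-base substitution carry the same SpeedSeq reads and were each tested. Counts of differing pairs, here and by gene below, therefore include some changes more than once.

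Kit, chr5:75574987-75656722 on the forward strand, encodes the receptor tyrosine kinase for stem cell factor, the c-Kit protein by which these cells were sorted. It held 31 SNVs and 8 indels, with 24, 26, 33 and 25 confident calls in replicates 1 to 4. Over the 17 sites confident in all 4 samples the median allele fraction was 100% in replicates 1, 2 and 4 and 36.4% in replicate 3. In replicate 3 those 17 sites ranged from 20.8% to 46.2%, and the lowest value in any of the other 3 samples was 86.3%. At these 17 sites the groups of values therefore did not overlap: Kit was upper-range in 3 samples and lower-range in replicate 3. Over all Kit calls, replicates 1 and 2 also had lower-range calls, described below.

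Single Kit sites show the same split. At the lowest position, C75606997T was read in 44 of 44, 37 of 37, 36 of 82 and 78 of 78 reads in replicates 1 to 4. At G75609659C, the site with the widest spread, the counts were 12 of 12, 16 of 16, 5 of 24 and 15 of 15. At the other end of the gene, G75654482A (chosen after its values were seen, as a well-covered site) was read in 127 of 127, 77 of 77, 42 of 126 and 100 of 100. In each case every read of 3 samples carried the variant and replicate 3 also carried the reference base.

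The pair tests gave the same picture for the whole gene. Of 67 Kit pairs that included replicate 3, 66 differed, with median differences of 60.0 percentage points (replicate 1 minus replicate 3), 61.9 (2 minus 3) and -62.5 (3 minus 4). Of 59 pairs among replicates 1, 2 and 4, Fisher's exact test called 0, also at an unadjusted p under 0.05. SpeedSeq gave a homozygous genotype to 20 of 24, 24 of 26, 0 of 33 and 25 of 25 calls.

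The median Kit fractions were near those of the SNVs around the gene. Outside the gene but in its 2 Mb bin, the medians over 23, 24, 26 and 25 SNVs were 100%, 100%, 40.9% and 100%. In the unbroken run of dense bins from 72 to 78 Mb of chromosome 5, they were 100%, 100%, 38.5% and 100% over 113, 121, 144 and 127 SNVs. The share of these block SNVs that were upper-range was 99.1%, 100%, 0.694% and 63.0%. In replicate 4 the block was thus mixed, with 80 of 127 SNVs upper-range, whereas all 25 Kit calls of that sample were. The 36.4% of Kit in replicate 3 also stood near that library's exome-wide lower-range median of 37.7%. The part of that library's shift in the Kit and Sf3a1 values was not tested.

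Of the 8 Kit indels, 3 changed a run of 9 or 11 bases by 1 base and 1 removed a single C. The rest were an insertion of TATC at 75645782, a pair of 3-base deletions and the 8-base deletion printed above. The deletions at 75648349 (8 bases) and 75648354 (3 bases) overlap and were named after their values were seen. SpeedSeq gave both alleles at once in replicates 1 and 2, with 6 of 14 and 6 of 17 reads for the 8-base deletion and 3 of 14 and 8 of 17 for the 3-base deletion. All of those reads were on 1 strand, and these were the only lower-range calls of Kit in replicates 1 and 2. A deletion of 1 T from a run of 9 at 75637500 was confident in replicate 2 alone, at 11 of 11 reads. In the other 3 samples it was listed below the thresholds. SpeedSeq read it in 8 of 8 reads in replicate 1 and 6 of 6 in replicate 4 and did not list it in replicate 3. VarScan2 gave 75%, 78.6%, 35.7% and 37.5% in replicates 1 to 4, so by that caller replicate 4 lay beside replicate 3.

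**Figure D2:**
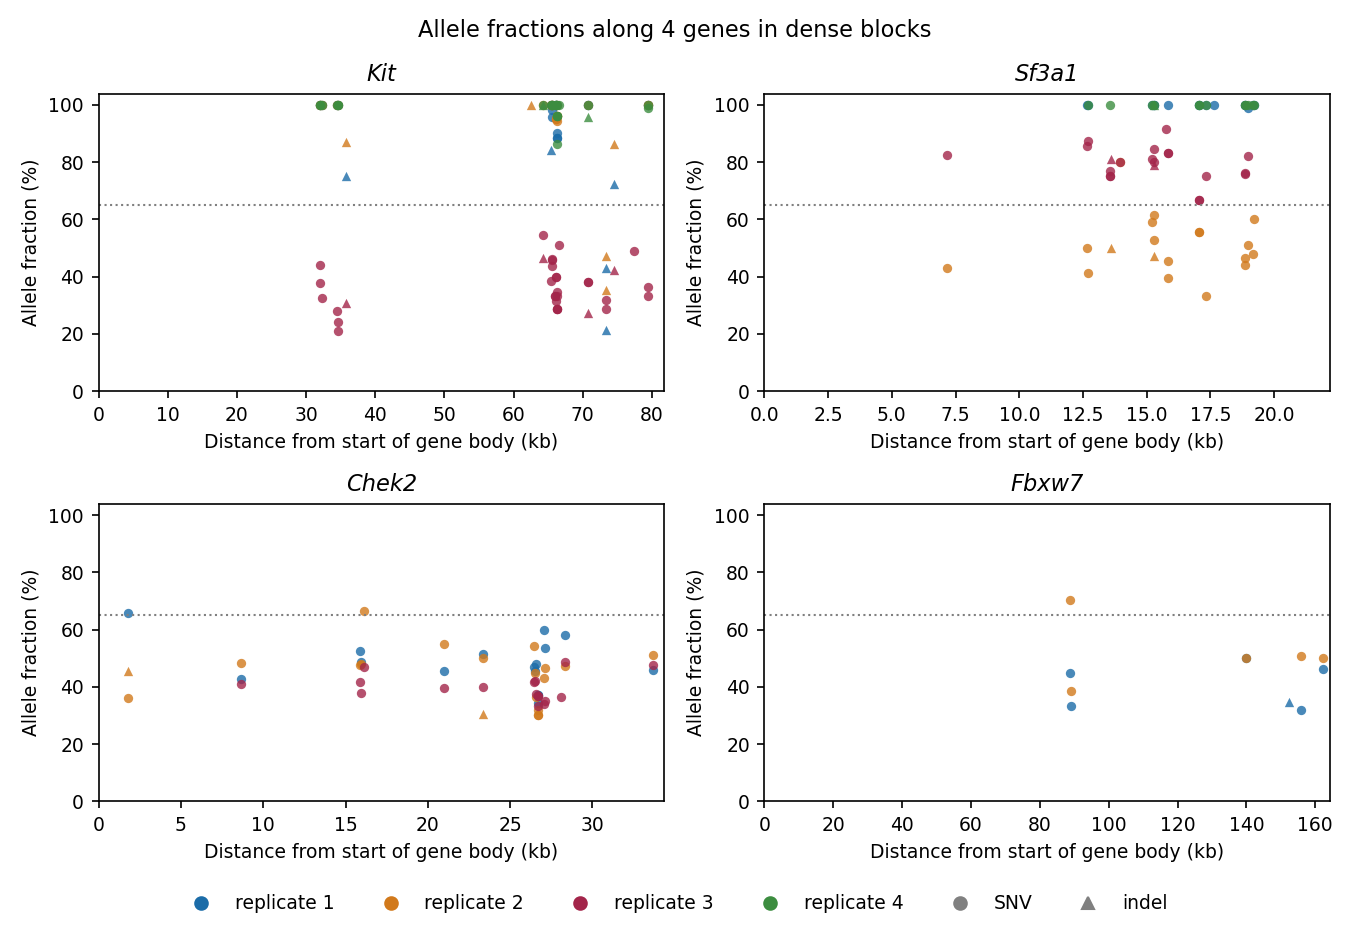
Allele fraction of each confident call (vertical axis, percent) against its distance from the start of the gene body in kb (horizontal axis) in Kit, Sf3a1, Chek2 and Fbxw7; circles are SNVs, triangles indels, colours samples, and the dotted line the 65% bound. In Kit and Sf3a1 most calls of a sample lie near 1 level along the gene, and Chek2 has no replicate 4 call.

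The other 3 signalling members are Flt3, the receptor for FLT3 ligand, Csf3r, the receptor for granulocyte colony-stimulating factor, and Notch1. None held a confident variant in any sample. SpeedSeq listed 5 calls in Flt3 and 5 in Notch1, at depths of at most 4 and 3 reads, and neither caller listed any in Csf3r. The best covered listing in Flt3 was an indel that VarScan2 alone gave, with 4 variant reads at a coverage of 18 in replicate 1 and 9 at 25 in replicate 3.

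Among the 12 transcription factors and partners, only Cebpa held a confident call. Cebpa, chr7:35119293-35121928 on the forward strand, encodes a factor that drives granulocyte maturation. Its gene body is 2636 bases long. Whether the deletion lies in the coding part was not read here, so it is not named a truncating change. The deletion lies at 35121102, 1809 bases from the gene start, and was read in 11 of 34 reads in replicate 2 (32.4%, 95% exact interval 17.4% to 50.5%). VarScan2 counted 9 variant reads beside 18 reference reads, or 33.3%. The variant reads lay on both strands, 8 forward and 3 reverse, at a mapping quality of 60. The reads give a lower-range call in 1 library, in a run of 12 C, and the depth at this position in the other 3 libraries is not given by the files. No other member indel in a run of 10 or more was private in this way.

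The remaining 11 members of this class held no confident call: Runx1, Gata2, Wt1, Etv6, Ikzf1, Cux1, Spi1, Myc, Nfe2, Bcor and Setbp1. Nothing was listed in Gata2, which sustains blood stem cells, or in Nfe2, a factor of platelet and red cell development. In the other 9, SpeedSeq listed between 1 and 21 calls, the most in Cux1, and 2 of them reached a depth of 10. These were 3 of 11 reads in Bcor, a corepressor, at a quality score of 12.4, and 2 of 10 reads in Runx1, the core-binding factor subunit, at a score of 2.22, both in replicate 3.

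In the class of DNA methylation and metabolism, Idh1 and Idh2 held indels and no SNV. Both encode isocitrate dehydrogenases, the first in the cytosol and the second in mitochondria, whose known leukaemia mutations change single arginine codons. In Idh1, chr1:65158616-65186479 on the reverse strand, the longer allele of the run of 16 A was read in 20 of 53, 15 of 47 and 21 of 56 reads in replicates 1, 3 and 4. Replicate 2 instead had the shorter allele, in 13 of 53 reads. So all 4 samples had a length change in the same run at 24.5% to 37.7% of reads, and not the same change. Deletion of 1 A from a second run, of 18 A at 65175136, was confident in replicate 3 at 6 of 25 reads. None of the 3 pairs of Idh1 calls that could be tested differed.

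In Idh2, chr7:80094845-80118608 on the reverse strand, the deletion in the run of 12 G was confident in replicate 4 at 8 of 21 reads. In replicates 1 and 3 VarScan2 alone gave it, with 8 variant reads at coverages of 36 and 32. The loss of 1 copy of the 6-base repeat was read in 8 of 9, 9 of 9, 14 of 14 and 18 of 18 reads in replicates 1 to 4, of which replicates 3 and 4 reached the depth limit. VarScan2 gave 66.7% and 69.2% in these 2 samples, so the callers put the same site at different fractions, though in the same range. SpeedSeq called it homozygous in replicate 3 and heterozygous in replicate 4.

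Dnmt3a, a DNA methyltransferase, and Tet2, a dioxygenase that oxidises methylcytosine, held no confident call. The nearest was G3850412A in Dnmt3a on chromosome 12, which both callers read in 9 of 9 reads in replicate 4, 1 read short of the depth limit. SpeedSeq also listed it with 3 of 3 reads in replicate 2 and 2 of 5 in replicate 1. In Tet2, SpeedSeq listed 6 calls at depths of at most 3, and VarScan2 an indel with 4 variant reads at a coverage of 15 in replicate 2.

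Chek2, a checkpoint kinase activated by DNA breaks, was the member of the cell cycle class with most sites. It lies at chr5:110839800-110874140 on the forward strand and held 18 SNVs and 2 indels, with 16, 19 and 17 calls in replicates 1 to 3 and 0 in replicate 4. SpeedSeq listed nothing at all in Chek2 in replicate 4. In the same 2 Mb bin outside the gene, replicates 1 to 3 had 221, 220 and 219 confident SNVs and replicate 4 had 1. The sample difference in Chek2 was thus shared by the rest of its bin.

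In the 3 samples that carried them the Chek2 calls were lower-range, with medians of 47.5%, 46.7% and 39.6%. The exceptions were T110841553C in replicate 1, at 23 of 35 reads (65.7%), and G110855906A in replicate 2, at 8 of 12 (66.7%). T110841553C, the lowest position and the widest spread, was at 9 of 25 reads in replicate 2 and below the thresholds at 5 of 24 in replicate 3. C110848441T, named after its values were seen for its depth, was read in 96 of 225, 89 of 184 and 105 of 255 reads. The 3 samples therefore lay near each other, and 2 of 47 pairs differed. Both compared replicates 1 and 3, at G110866864A (60.0% and 33.9%, adjusted p = 0.00381) and at G110866897A (53.6% and 35.1%, adjusted p = 0.00923), by Fisher's exact test. The 2 sites lie close together, and replicate 3 also had the lower exome-wide median. Of the 20 sites, 15 were confident in all 3 of these samples.

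One call lay just outside Chek2. C110839787T, 13 bases before the gene start and inside the RefSeq promoter window (GRCm38.p6), was confident in replicate 2 at 5 of 10 reads and was read in 3 of 4 in replicate 3. RefSeq windows of 300 bases were matched for 28 of the 34 members, and 0 of the 98 sites fell in one. The sites were limited to gene bodies, so only the part of a window inside its gene could hold one. The 0 is therefore not read as a result about promoters.

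Fbxw7, the substrate receptor of a ubiquitin ligase that marks proteins such as Myc and Notch1 for degradation, lies at chr3:84814990-84979198 on the forward strand. Replicate 1 had 6 confident calls there and replicate 2 had 5, whereas replicates 3 and 4 had 0. The medians were 39.7% and 50%, both lower-range. A84903756G, the lowest position and the widest spread, was read in 30 of 67 reads (44.8%) in replicate 1 and 38 of 54 (70.4%) in replicate 2. It was the 1 of 5 Fbxw7 pairs that differed (adjusted p = 0.0206, Fisher's exact test). The single indel added 1 T to a run of 18 T at 84967383, in 9 of 26 reads in replicate 1. The bin around Fbxw7 outside the gene had 46 and 53 SNVs in replicates 1 and 2 and 0 in replicates 3 and 4, the same split as the gene.

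Trp53, the p53 gene, held no confident variant. The nearest was the deletion in a run of 14 G printed above, at 69587110 on chromosome 11 in replicate 2, with 5 of 10 reads at a quality score of 26.4. VarScan2 gave it 3 variant reads at a coverage of 8, which missed the depth limit. Cdkn2a, which encodes the p16 and ARF tumour suppressors, and Ppm1d, a phosphatase that restrains p53, had 1 SpeedSeq listing each, at depths of 4 and 2 reads. Npm1, a nucleolar chaperone whose human leukaemia mutations are small insertions in its last exon, had 1 listing, by VarScan2 alone, an SNV with 4 variant reads at a coverage of 13 in replicate 1.

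Among the splicing factors, Sf3a1 had most sites. Sf3a1, a subunit of the U2 small nuclear ribonucleoprotein that binds the branch point, lies at chr11:4160354-4182541 on the forward strand. It held 22 SNVs and 2 indels in a gene body of 22188 bases, with 15, 19, 21 and 13 calls in replicates 1 to 4. Over the 9 sites confident in all 4 samples the median allele fraction was 100%, 51.0%, 76.3% and 100%. Replicate 2 ranged from 33.3% to 59.1%, replicate 3 from 66.7% to 87.5%, replicate 1 from 99.0% to 100%, and replicate 4 stood at 100% at each. At these 9 sites the samples thus fell into 3 levels that did not overlap, with replicates 1 and 4 on the same level. Over all Sf3a1 calls replicates 2 and 3 did overlap, at 33.3% to 80% and 66.7% to 91.7%.

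At A4177676G, the Sf3a1 site with the widest spread, 18 of 18, 5 of 15, 24 of 32 and 20 of 20 reads carried the variant. At T4179206C, named after its values were seen for its depth, the counts were 226 of 226, 95 of 215, 229 of 300 and 264 of 264. The lowest position, A4167523C, was confident in replicates 2 and 3 at 6 of 14 and 14 of 17 reads, and was listed by SpeedSeq alone in replicate 4 at 13 of 13. At each of these sites replicate 2 was the lowest of the samples with a value and replicate 3 the next, and at A4167523C neither caller listed replicate 1.

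Replicates 1 and 4 differed from each other in 0 of 11 Sf3a1 pairs by Fisher's exact test, and replicate 2 differed from replicate 1 in 13 of 14 and from replicate 4 in 12 of 12. Replicate 3 differed from replicate 1 in 7 of 12 pairs, from replicate 2 in 8 of 17 and from replicate 4 in 6 of 11. The median difference was 19.5 percentage points for replicate 1 minus replicate 3 and -23.1 for replicate 3 minus replicate 4. SpeedSeq gave a homozygous genotype to all 15 calls of replicate 1 and all 13 of replicate 4, and to 0 of 19 in replicate 2. In replicate 3 all 21 calls were upper-range and 0 were called homozygous, so the 2 measures of zygosity part there. Outside the gene the bin medians were 100%, 48.1%, 79.2% and 100% over 526, 580, 630 and 547 SNVs, the same levels as inside. The exome-wide upper-range median of replicate 3 was 80.0%.

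Sf3b1, chr1:54985169-55027501 on the reverse strand, encodes the largest subunit of the neighbouring SF3b complex and is the splicing factor with best known hotspot mutations. It held no SNV. Its 1 site, the insertion of a T at 54997297, was read in 21 of 21, 11 of 11 and 12 of 12 reads in replicates 2, 3 and 4 and was not listed in replicate 1. All variant reads lay on the reverse strand. VarScan2 put it at 100%, 62.5% and 68.8%, with 6 and 5 reference reads in replicates 3 and 4, so the callers differ on its range in replicate 3. With reads on both strands required, or a depth of 20, Sf3b1 had 0 sites. With SpeedSeq alone it had 2. Elsewhere in the gene, SpeedSeq listed 2 calls in replicate 1 that did not pass in both callers, at depths of at most 21 reads.

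U2af1, chr17:31647081-31659148 on the reverse strand, encodes the small subunit of the factor that reads the AG at the 3′ splice site. T31647992A was read in 19 of 44, 9 of 32 and 15 of 32 reads in replicates 1, 2 and 4 (43.2%, 28.1% and 46.9%) and was not listed in replicate 3. None of the 3 pairs differed. G31647975C was confident in replicate 1 at 9 of 27 reads. VarScan2 alone listed it in replicate 2, with 10 variant reads at a coverage of 31, and in replicate 4, with 16 at 33. The reads behind the 4 U2af1 calls had mean mapping qualities of 50.3 to 58.7, the lowest of all member calls. The next lowest was 59.7, so the placement of the U2af1 reads is less certain. In the bin outside the gene the medians were 100%, 50% and 48.7% in replicates 1, 2 and 4, with no SNV in replicate 3. Replicate 1 was therefore lower-range inside U2af1 and upper-range around it.

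The remaining 5 splicing factors held no confident call. Neither caller listed anything in Srsf2, an SR protein, Prpf8, the core protein at the catalytic centre, or Ddx41, a helicase. Sf1, which binds the branch point early, had 1 SpeedSeq listing and Luc7l2, a partner of U1, 3, at depths of at most 3 reads.

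The 2 comparison lists held variants about as often. Of 25 other spliceosome genes, 5 held a confident variant (20%), led by Srsf3 with 3 sites, and then Prpf40b and Prpf6 with 1 each. Of 25 other haematopoietic transcription factors, 5 did (20%), led by Gfi1 with 10 sites, and then Gata3 and Hoxa10 with 1 each. Gfi1 lies on the same chromosome as Kit and Chek2 and had 8 calls in each of replicates 1 to 3 and 0 in replicate 4, the sample split of Chek2.

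The members were next placed among SNV-rich stretches of the genome. A 2 Mb bin was named dense in a sample when it held 10 or more confident SNVs there. Of the 34 members, 11 lay in a dense bin in at least 1 sample (32.4%, beside 34.1% of all genes), and 2, Kit and Sf3a1, in all 4 (5.88%, beside 14.0%). Per sample the count was 9, 8, 6 and 5 (26.5%, 23.5%, 17.6% and 14.7%, beside 27.3%, 25.5%, 24.7% and 20.6%). Of the 11, 5 held a confident variant (45.5%, beside 3732 of the 7464 genes that lie in one): Kit, Sf3a1, Chek2, Fbxw7 and U2af1.

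All 78 member SNVs lay in those 5 genes. The 23 members outside dense bins held 0 SNVs and 7 indels, in Cebpa, Idh1, Idh2 and Sf3b1. The same counts over all genes outside dense bins are not given here, so this split is not read as particular to the members. Bins were named dense from SNV counts that include the genes' own, so the 2 counts are linked. Without the gene's own sites the bins of Kit, Sf3a1, Chek2, Fbxw7 and U2af1 still held at least 23 SNVs in each sample with a call in the gene.

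**Figure D3:**
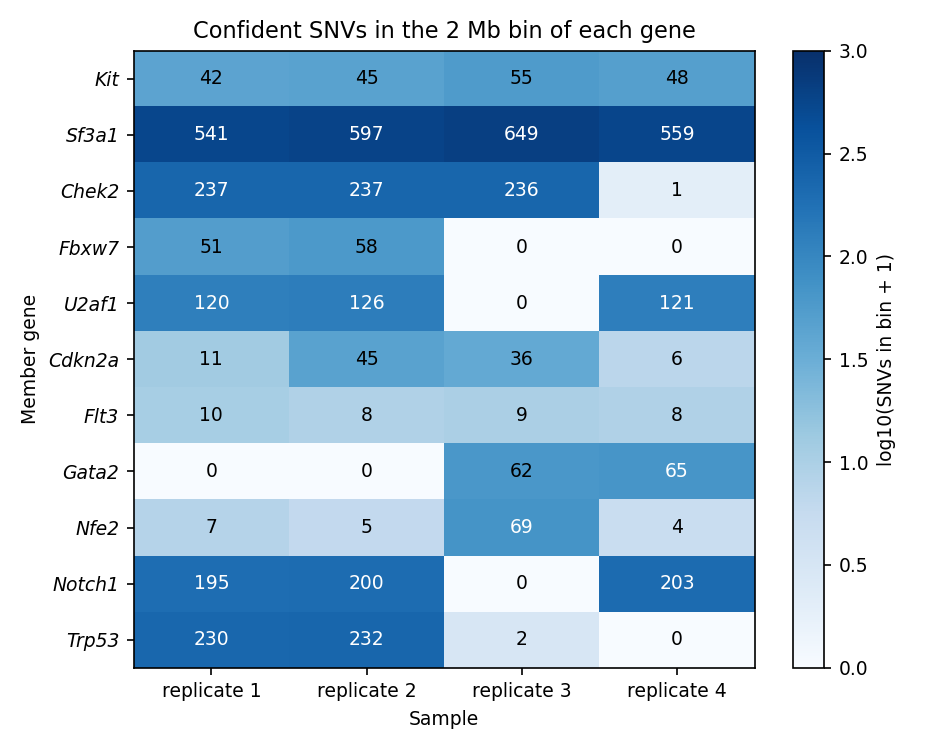
Number of confident SNVs in the 2 Mb bin of each of the 11 members that lie in a dense bin in at least 1 sample (vertical axis) in each sample (horizontal axis); the colour is the log10 of the number plus 1. Sf3a1 has 541 to 649 in every sample, while the bins of Chek2, Fbxw7, U2af1, Notch1, Trp53, Gata2 and Nfe2 are full in some samples and empty or nearly so in others.

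Not every member in a dense bin held a call: 6 of the 11 did not. Of all 7464 genes in a dense bin, 3732 held one, so the members were near the background. Notch1 had 195, 200, 0 and 203 SNVs in its bin and no confident variant in the gene, with the nearest SNV 477 kb away in replicates 1, 2 and 4. Trp53 had 230, 232, 2 and 0 in its bin, with the nearest 58.0 kb away in replicates 1 and 2. Gata2 had 0, 0, 62 and 65, Nfe2 7, 5, 69 and 4, Cdkn2a 11, 45, 36 and 6, and Flt3 10, 8, 9 and 8. None of these 6 genes held a confident call, in samples with a full bin or without. The samples that shared a full bin changed from gene to gene: replicates 1 and 2 at Trp53, 3 and 4 at Gata2, 1, 2 and 4 at Notch1 and U2af1, and 1, 2 and 3 at Chek2.

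The 20 indels were grouped by the run they sit in. In runs of 10 or more bases there were 8 sites with 12 calls, each a change of 1 base, at 24.0% to 86.2% of reads (median 37.6%). The other 12 sites had 24 calls at 21.4% to 100% (median 79.9%). Of all 20, 4 had a length that is a multiple of 3. The Cebpa deletion, the 3 Idh1 sites and the first Idh2 site belong to the first set, as the plot of indel fractions by run length shows.

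**Figure D4:**
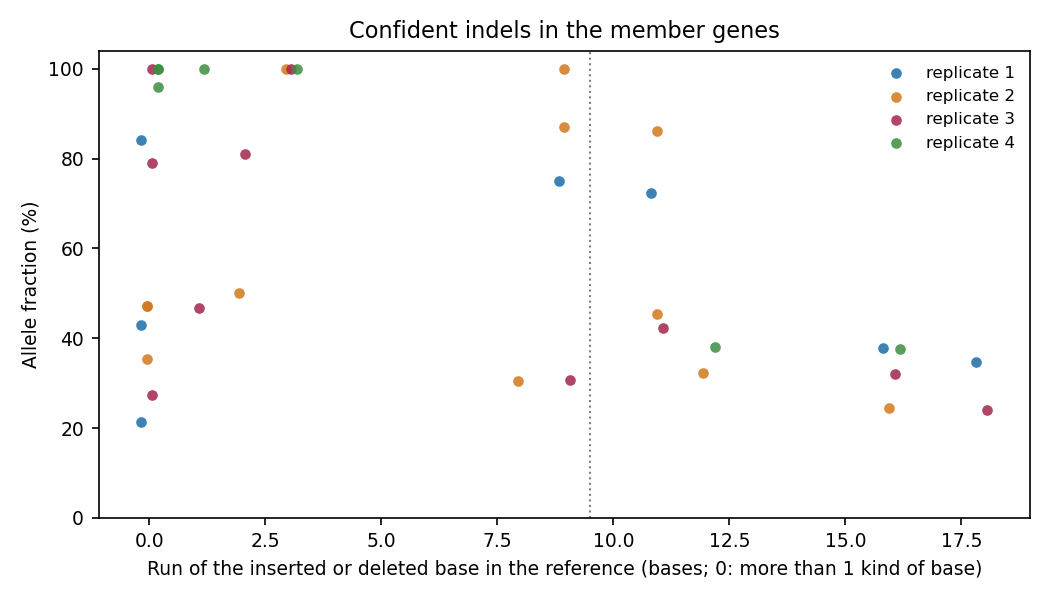
Allele fraction of each confident indel call (vertical axis, percent) against the length of the single-base run it changes in the reference (horizontal axis, bases, with points shifted slightly sideways by sample; 0 means that more than 1 kind of base changed); colours are samples and the dotted line separates runs of 10 or more. Calls in runs of 12 or more bases lie between 24.0% and 38.1%, and those at 100% are in runs of 9 or fewer.

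The members without a confident call were not empty in the files. Of the 25, 6 had no listing by either caller (Csf3r, Gata2, Nfe2, Srsf2, Prpf8 and Ddx41). In the other 19, SpeedSeq listed 118 calls, 115 of them at a depth under 10, and VarScan2 listed 9. Only 2 of these were given by both callers with the same alleles, the Dnmt3a and Trp53 calls described above. The files list variant sites only, so a position with no call may have been read without a variant or not read at all.

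Pooled over samples, the callers disagreed more at upper-range sites. Of 159 upper-range member calls that passed in SpeedSeq, 29 (18.2%) did not pass in VarScan2, beside 3 of 131 lower-range calls (2.29%). By sample the upper-range count was 9 of 48, 8 of 36, 0 of 23 and 12 of 52 in replicates 1 to 4, so replicate 3 did not show it. Examples, named after their values were seen, are in Kit the TATC insertion, read in 25 of 26 and 23 of 25 reads in replicates 1 and 2 by SpeedSeq alone, and in Sf3a1 the loss of 1 C at 4173943, in 22 of 22 and 18 of 18 reads in replicates 1 and 4. Upper-range counts are thus lower bounds on what SpeedSeq alone would give. The 2 callers placed 4 of the 255 confident calls in different ranges. Variant reads lay on 1 strand in 52 of the 255.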

How the data were processed

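Exons of genomic DNA from 4 samples were captured (Agilent SureSelect) and read as paired ends, per the labels' protocols. The deposited SpeedSeq files were made per sample with freeBayes 0.9.21 on mm10, per the file headers. They hold whole read counts (depth, reference and variant reads) and, per the file headers, a Phred-scaled quality score that the caller computed for each site. The deposited VarScan2 tables hold read counts and a variant percent, and list coverage from 8 and frequencies from 20%, as tested on the files. The builds mm10 and GRCm38 are named in the submitters' processing notes. Not given in the sources used here are the aligner, any removal of duplicates, and which VarScan2 release was run.

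Multi-base substitutions were split into SNVs, complex alleles were not used, and calls were placed in gene bodies of the RefSeq gene table (GRCm38.p6) with Python 3.11.15, numpy 2.4.6, pandas 2.3.3 and scipy 1.17.1. Figures used matplotlib 3.10.9. A confident call met a depth of 10, 3 variant reads and a fraction of 10% in both callers, with a quality score of 20. Site fractions are variant reads over depth in SpeedSeq, and variant over reference plus variant reads in VarScan2. Fisher's exact test (two-sided) was checked on simulated reads. Depths of the member calls ran from 10 to 300 reads, which limits single fractions to the exact intervals printed.

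Replicate numbers follow the listed order, and nothing states separate litters or batches. P-values measure only the reads of these libraries. Members with 5 or fewer sites have each site given; longer lists give medians and at most 3 sites (lowest position, widest spread, confident in 1 sample alone), and sites outside this rule are marked. The members and lists were chosen with earlier results of these data known. Alternatives were each caller alone, stricter depth, quality, fraction, strand and mapping filters, other bins and bounds, wider genes, and leaving out each sample.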

Additional observations from a re-analysis of the deposited data

Results flagged for a closer look

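Of 19 per-sample quantities with 4 values each, 6 had 1 sample far from the other 3, with a gap that passed Dixon's test at the 95% level. The nominal rate of about 1 in 20 does not hold for tied counts, or for bins listed because they were dense in at least 1 sample. The flags are therefore a description only, and several of these quantities describe the same few bins or libraries. Replicate 2 had a confident variant in 8 member genes beside 6 in each of the others, and with 3 equal values any different value is flagged. The median over the 17 shared Kit sites was 36.4% in replicate 3, beside 100% in replicates 1, 2 and 4, a ceiling at which the gap is the whole range. Notch1 had 0 SNVs in its 2 Mb bin in replicate 3, beside 195 to 203 in the others. U2af1 had 0 in replicate 3, beside 120 to 126. Nfe2 had 69 in its bin in replicate 3, beside 4 to 7. Chek2 had 1 in its bin in replicate 4, beside 236 or 237. What sets these samples apart was not tested.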

How the results depend on the processing

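The count of member genes with a confident variant (9, range 7 to 13), of sites (98, range 71 to 115) and of members in dense bins (11, range 10 to 13) stayed within 1.5 times of the values given under every alternative run. The 26 sites confident in all 4 samples became 41 with SpeedSeq alone and 16 at a depth of 20; leaving out each sample in turn gave 28 to 46, the highest without replicate 4. The single private site became 2 with SpeedSeq alone, 10 with VarScan2 alone and 0 when indels in runs of 10 or more were left out, an alternative chosen after seeing the data; leaving out each sample gave 1 to 9, with 9 without replicate 1 and 7 without replicate 2. The share of upper-range calls, 50.6%, became 44.1% with VarScan2 alone and 57.3% at a quality score of 100, and 42.0% to 58.9% on leaving out each sample. The 115 differing pairs became 26 to 73 on leaving out each sample, which also removes pairs: 73, 60, 26 and 72 without replicates 1 to 4. The number of sites in single genes moved by more than 1.5 times in Sf3a1 (14 at a depth of 20), Sf3b1 (0 to 2), Idh1 (0 to 4), Idh2 (1 to 2), U2af1 (1 to 4) and Cebpa (0 without replicate 2 or without long-run indels). Where no construction of the alternative shows it, the cause was not tested. No paired analysis was possible because all samples form 1 group. Limits: at a depth of 10 a single fraction is loose, frequencies under 20% are outside what both callers list, exons were not used to place the calls, and depth at positions without a call was not analysed here.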
